A study of Mus with 12 samples.

Results

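Atf3, Jun, Fosb, Dusp1 and Nr4a1 are 5 genes of the immediate early stress response. They were taken by name from a panel of 754 gene probes, and all 5 were on it. The cells came from mouse kidneys after ischemia and reperfusion injury (IRI). Single cells were released from both kidneys of each animal by digestion. F4/80, a surface protein of mouse macrophages, was then used to capture cells with a biotinylated antibody and a magnetic kit. RNA was counted on the NanoString platform, where barcoded probes bind RNA molecules directly and each bound barcode is counted. The question set by the design is how macrophages that lack Aif1, a calcium-binding and actin-associated protein also called Iba1, respond to injury.

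The 12 libraries form 4 groups of 3. KO mice (Aif-1 -/-; mice 17, 23 and 32) gave the KO injured group from the left kidney, which had 30 min of ischemia and was taken on day 4, and the KO contralateral group from the right kidney, which was not made ischemic. WT mice (Aif-1 +/+; mice 12, 26 and 36) gave the WT injured and the WT contralateral group in the same way. The mouse is the replicate, and each contralateral kidney is the control of its own animal. All contralateral kidneys therefore come from animals with an injured kidney, and no animal without ischemia is among the samples. The sources used here give neither strain, age and sex of the mice nor how Aif1 was deleted.

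Immediate early genes are switched on within minutes of a stimulus, without new protein synthesis, and their transcripts are short-lived. Jun and Fosb encode subunits of the AP-1 transcription factor, and Atf3 a stress-induced factor of the ATF/CREB family that can pair with Jun proteins. Dusp1 encodes a phosphatase that switches MAP kinases off, and Nr4a1 an orphan nuclear receptor (Nur77). In kidney several of these genes are known to respond to ischemia, and they are also known to be induced while tissue is dissociated with enzymes, in many cell types.

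The depth of the libraries differed. Total counts ran from 255274 to 904220 per library. The geometric mean of 20 housekeeping genes ran from 118 (KO mouse 32, injured) to 901 (WT mouse 12, injured), a 7.65-fold range, while the spiked positive controls differed 1.18-fold. KO mouse 17 injured had a housekeeping count of 701, and WT mouse 12 had 901 in its injured and 879 in its contralateral kidney. The other 9 libraries lay between 118 and 318. These 3 libraries stand apart, and results are given with and without mice 12 and 17 where they matter. KO and WT libraries could not be told apart by the Aif1 probe. It read 64 to 93 raw counts in KO injured, 54 to 83 in KO contralateral, 74 to 95 in WT injured and 57 to 72 in WT contralateral libraries, close to the detection threshold of 53.1, so it checks neither the labels nor the deletion.

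The captured cells carried macrophage and tubule transcripts. Adgre1, the gene of F4/80, had raw counts of 292 to 1932 in KO injured, 230 to 275 in KO contralateral, 428 to 600 in WT injured and 312 to 426 in WT contralateral libraries. Klk1, a kallikrein of the distal nephron, had raw counts of 1715 to 49240 in KO injured, 3994 to 5584 in KO contralateral, 2210 to 52527 in WT injured and 3387 to 55136 in WT contralateral libraries. The 11 macrophage markers on the panel summed to 2335 to 28542 raw counts a library and the 5 tubule markers to 3469 to 131676, and the tubule sum was the larger one in 10 of 12 libraries. Macrophage and tubule transcripts were thus present in every library, and the share of macrophages among the captured cells cannot be read from these probes. In such bulk samples, fewer cells of a type and less RNA per cell cannot be told apart.

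The 5 genes were measured far above background in every library. The lowest of their raw counts was 254, for Nr4a1 in the injured kidney of KO mouse 32, with a 95% Poisson interval of 224 to 287 that covers counting error only. Together they took 4.67 to 8.02% of the counts of the 734 endogenous genes. Their raw counts differed between libraries more than the housekeeping genes did, from 9.50-fold for Dusp1 to 15.02-fold for Nr4a1. Divided by the housekeeping count of the library, the range shrank to 1.88-fold for Atf3, 1.90-fold for Dusp1, 2.27-fold for Jun, 2.32-fold for Nr4a1 and 2.48-fold for Fosb.

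Atf3 had raw counts of 19056, 5218 and 1854 in KO injured kidneys (mice 17, 23 and 32) and of 2522, 2904 and 3858 in KO contralateral kidneys. In WT mice (12, 26 and 36) it had 16167, 3154 and 2728 in injured and 13178, 3814 and 6683 in contralateral kidneys. The high values are the injured kidney of mouse 17 and both kidneys of mouse 12. Counts were then scaled for library size with TMM factors (trimmed mean of M-values), and these are called normalised counts. On that scale Atf3 averaged 5279 ± 2578 in KO injured, 4436 ± 1271 in KO contralateral, 5006 ± 2526 in WT injured and 6387 ± 622 in WT contralateral kidneys (SD, n = 3 each). The ranges of the injured and contralateral kidneys overlapped in either genotype, and the means of the 2 kidneys differed by less than the SD of the injured group.

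Jun, an AP-1 subunit, had raw counts of 13196, 3336 and 1078 in KO injured and of 1659, 1466 and 1898 in KO contralateral kidneys. Its counts were 14517, 1621 and 1425 in WT injured and 10088, 1925 and 2980 in WT contralateral kidneys. As with Atf3, mouse 17 injured and both kidneys of mouse 12 were high, and the groups overlapped. The normalised means were 3457 ± 1967 in KO injured, 2398 ± 495 in KO contralateral, 3594 ± 3039 in WT injured and 3719 ± 1482 in WT contralateral kidneys (SD, n = 3 each).

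Fosb, the other AP-1 subunit of the set, had raw counts of 8236, 1507 and 704 in KO injured and of 1037, 1421 and 1646 in KO contralateral kidneys. In WT mice it had 6741, 1165 and 1033 in injured and 4724, 1296 and 2899 in contralateral kidneys. Outside mice 12 and 17, no injured kidney had more than 1507 counts, against 2899 in the contralateral kidney of mouse 36. The normalised means were 2015 ± 1318 in KO injured, 1953 ± 522 in KO contralateral, 1985 ± 1139 in WT injured and 2408 ± 356 in WT contralateral kidneys (SD, n = 3 each).

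Dusp1 had raw counts of 13717, 3902 and 1444 in KO injured and of 1788, 1775 and 2383 in KO contralateral kidneys. Its counts were 12954, 2193 and 1899 in WT injured and 10901, 2707 and 4158 in WT contralateral kidneys. The pattern was that of Atf3 and Jun, with mice 26, 32 and 36 lower in the injured kidney. Normalised means were 3905 ± 1759.6 in KO injured, 2842 ± 706 in KO contralateral, 3761 ± 2237 in WT injured and 4631 ± 1081 in WT contralateral kidneys (SD, n = 3 each).

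Nr4a1 had raw counts of 3509, 744 and 254 in KO injured and of 557, 402 and 459 in KO contralateral kidneys. It had 3814, 469 and 399 in WT injured and 3683, 503 and 967 in WT contralateral kidneys. Mouse 12 gave the highest and the second highest WT value, one from each kidney. Normalised means were 860.0 ± 567 in KO injured, 675 ± 139 in KO contralateral, 972 ± 775 in WT injured and 1217 ± 664 in WT contralateral kidneys (SD, n = 3 each). In the order of the 4 group means, the WT contralateral mean was the highest and the KO contralateral mean the lowest for each of the 5 genes, and neighbouring means in that order differed by less than the larger of their SDs.

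**Figure D1:**
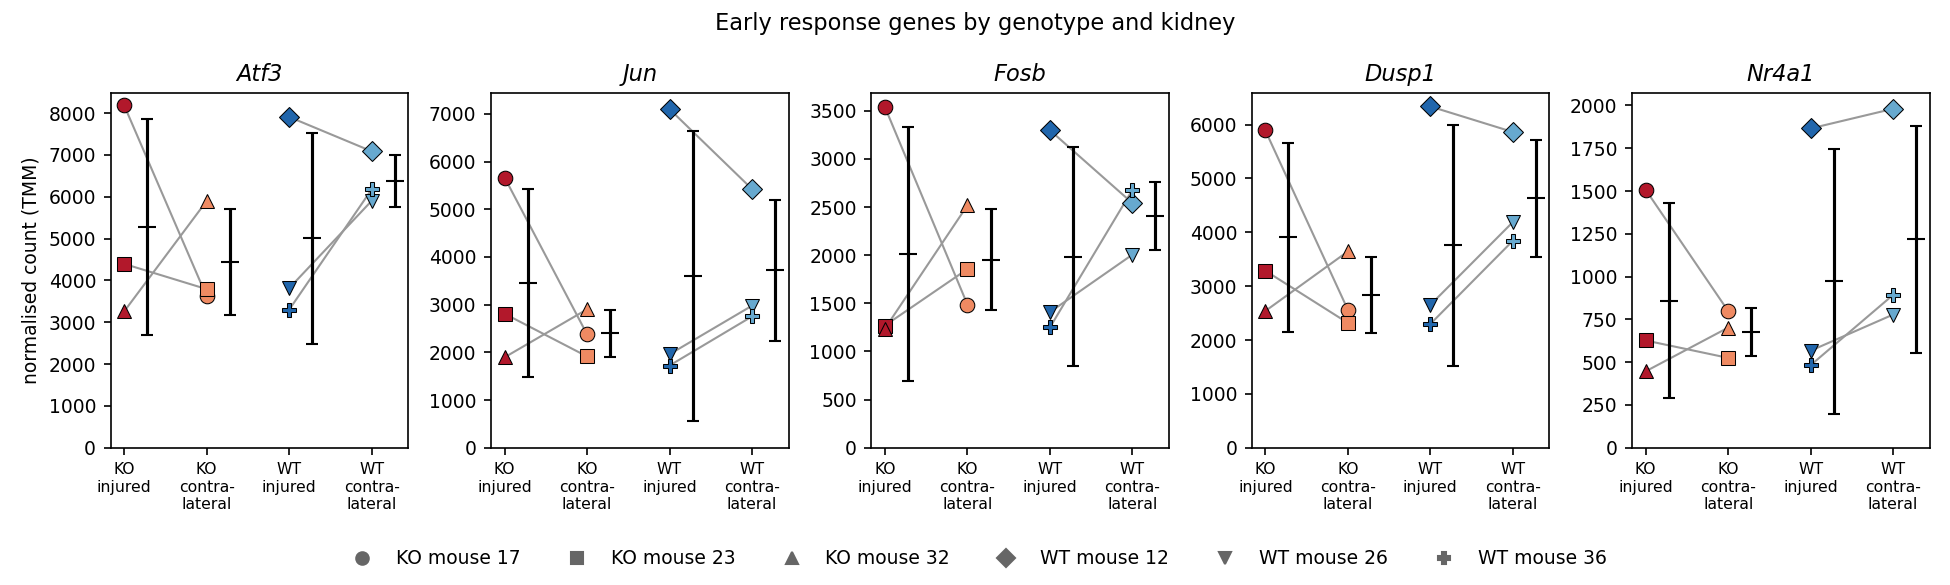
Normalised count (TMM scaling, y axis from 0) of each gene in the 4 groups. Each symbol is a library, grey lines join the kidneys of a mouse, and black bars beside the points give mean and SD (n = 3). The injured library of KO mouse 17 and both libraries of WT mouse 12 lie highest or near highest in most panels, and lines run both up and down.

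The first comparison asked what injury changed when the responses of both genotypes were averaged, with each mouse as its own control. None of the 5 genes passed. The log2 difference, injured minus contralateral, was -0.14 ± 0.38 for Atf3, 0.05 ± 0.34 for Jun, -0.27 ± 0.34 for Fosb, -0.02 ± 0.35 for Dusp1 and -0.15 ± 0.25 for Nr4a1 (SE, n = 6 mice), with adjusted p from 0.745 to 0.989 by edgeR's quasi-likelihood test. The count of genes called was 0 of 5, against 7.92% of the 682 genes tested on the panel. It was also 0 of 5 at an unadjusted p under 0.05, and 0 of 5 by DESeq2. The 95% interval of the log2 difference ran from -0.95 to 0.67 for Atf3, -0.68 to 0.78 for Jun, -0.998 to 0.46 for Fosb, -0.75 to 0.72 for Dusp1 and -0.67 to 0.38 for Nr4a1. Directions were not stable: scaling to the positive controls turned Atf3 (0.19), Fosb (0.03), Dusp1 (0.32) and Nr4a1 (0.19) above 0, and DESeq2's size factors turned Jun to -0.0006307.

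Within KO mice the log2 differences were 0.18 ± 0.55 for Atf3, 0.40 ± 0.49 for Jun, -0.13 ± 0.49 for Fosb, 0.40 ± 0.49 for Dusp1 and 0.18 ± 0.35 for Nr4a1 (SE, n = 3 mice). The edgeR adjusted p ran from 0.613 to 0.882, and 0 of 5 were called against 6.74% of the panel. Within WT mice they were -0.46 ± 0.54 for Atf3, -0.30 ± 0.48 for Jun, -0.41 ± 0.48 for Fosb, -0.43 ± 0.48 for Dusp1 and -0.47 ± 0.35 for Nr4a1, with edgeR adjusted p from 0.884 to 0.948, and 0 of 5 were called against 0.733% of the panel. In both genotypes 0 of 5 had an unadjusted p under 0.05 and DESeq2 called 0 of 5. Point estimates were thus above 0 for 4 of 5 genes in KO mice and below 0 for 5 of 5 in WT mice, within 95% intervals that include 0 for each gene. In WT mice no alternative scaling turned a direction, while in KO mice Atf3 (-0.03) and Nr4a1 (-0.03) turned below 0 when only the 15 housekeeping genes above the threshold in every library set the scale, and Fosb (0.43) turned above 0 with the positive controls.

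The difference of these responses, KO minus WT, was tested directly. It was 0.64 ± 0.77 for Atf3, 0.70 ± 0.69 for Jun, 0.29 ± 0.69 for Fosb, 0.83 ± 0.69 for Dusp1 and 0.66 ± 0.50 for Nr4a1 on the log2 scale (SE, n = 3 mice a genotype), with edgeR adjusted p from 0.447 to 0.806. The test called 0 of 5 genes, against 0% of the panel, where 75 of 682 genes had an unadjusted p under 0.05 and none of these was one of the 5. DESeq2 called 0 genes of the panel. Fosb turned to -0.04 with the scale set by the 15 housekeeping genes above the threshold. The number called depended on KO mouse 32. Without it, Nr4a1 had a difference of 1.18 with an edgeR adjusted p of 0.0185, and 1 of 5 genes was called, in a fit that then called 323 of 682 panel genes. The differences of the other 4 genes were not called in that fit.

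KO and WT mice were then compared kidney by kidney. In injured kidneys the log2 difference, KO minus WT, was 0.08 ± 0.56 for Atf3, -0.06 ± 0.64 for Jun, 0.02 ± 0.54 for Fosb, 0.05 ± 0.55 for Dusp1 and -0.18 ± 0.61 for Nr4a1 (SE, n = 3 mice a genotype), with an edgeR adjusted p of 0.9999 each. The signs were not stable, since other scalings turned the direction of each of the 5 estimates. In contralateral kidneys it was -0.53 ± 0.56 for Atf3, -0.63 ± 0.64 for Jun, -0.30 ± 0.54 for Fosb, -0.70 ± 0.55 for Dusp1 and -0.85 ± 0.61 for Nr4a1, with edgeR adjusted p from 0.723 to 0.768. Of these, Fosb turned to 0.04 with the 15 housekeeping genes. Either comparison called 0 of 5 genes and 0% of the panel. At an unadjusted p under 0.05 there were 5 panel genes in injured and 3 in contralateral kidneys, none of the 5 among them, and DESeq2 called 3 and 0 panel genes, again none of the 5. Without mice 12 and 17, all 6 comparisons still called 0 of 5 genes, and in injured kidneys Jun (0.33) and Nr4a1 (0.01) then lay above 0 and Fosb (-0.11) below.

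Without overlap between the genotypes were Atf3 and Dusp1 in the contralateral kidneys. Atf3 had at most 5899.7 normalised counts in KO contralateral kidneys and at least 5900.5 in WT contralateral kidneys, so the ranges all but touch. Dusp1 had at most 3644 in KO contralateral and at least 3841 in WT contralateral kidneys. That is 2 of 5 genes, against 11.9% of the panel genes without overlap in this comparison. Between KO injured and KO contralateral kidneys 0 of 5 were without overlap, against 18.5% of the panel, between WT injured and WT contralateral kidneys 0 of 5, against 4.11%, and between KO injured and WT injured kidneys 0 of 5, against 3.67%. Per housekeeping count the ranges did overlap. Atf3 stood at 15.4 to 24.5 in KO contralateral and at 14.99 to 28.1 in WT contralateral kidneys, and Dusp1 at 10.5 to 15.2 in KO contralateral and at 12.4 to 20.0 in WT contralateral kidneys.

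**Figure D2:**
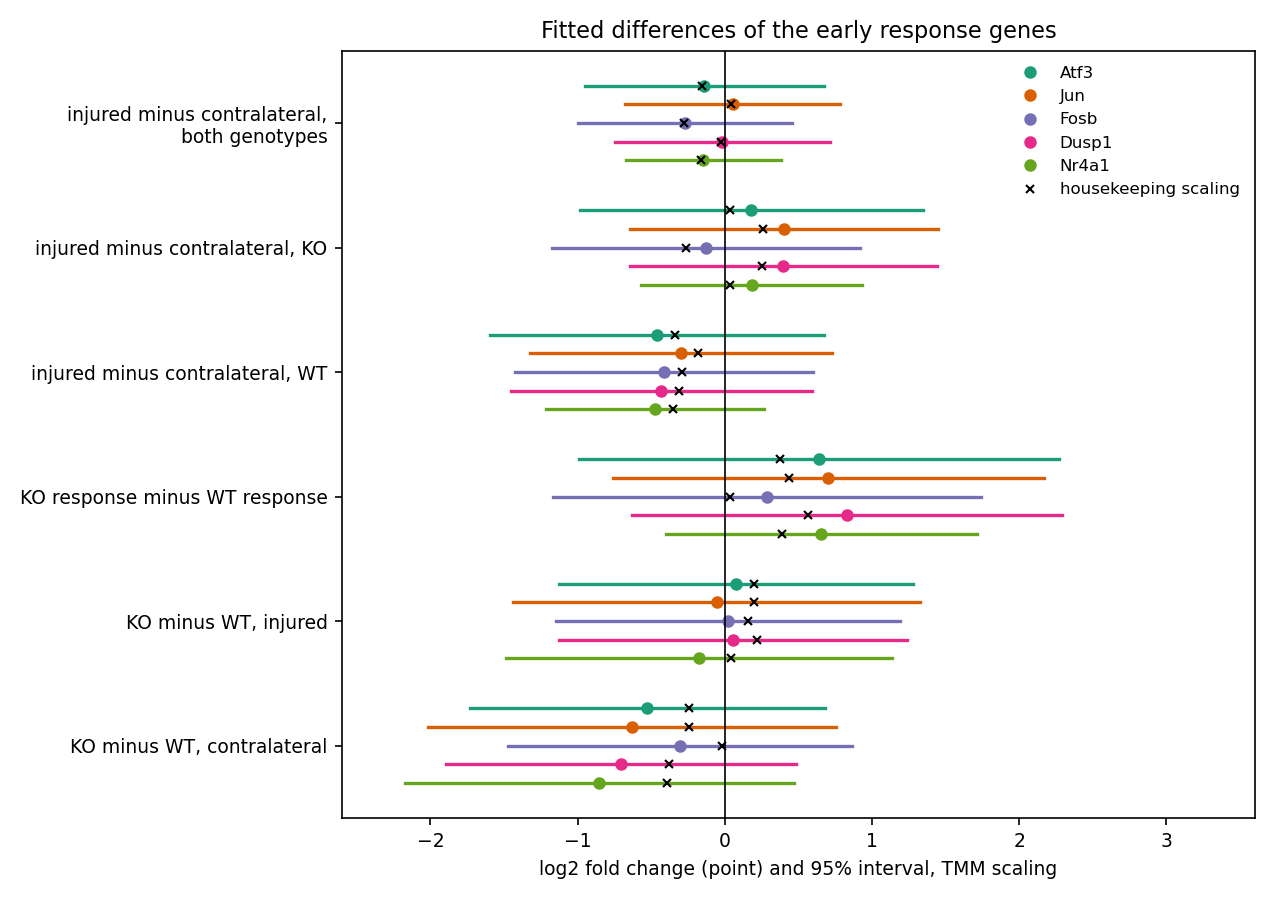
Log2 difference of each gene in the 6 comparisons (x axis), with points for the TMM scaling, lines for the 95% intervals and crosses for scaling to the housekeeping genes. Every interval drawn includes 0, and every cross lies inside its interval.

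The mean differences near 0 hide large differences within single mice, in opposite directions. In KO mouse 17 all 5 genes were higher in the injured kidney, by 0.92 (Nr4a1) to 1.25 (Jun) on the log2 scale of normalised counts, where 49.9% of panel genes were higher. In KO mouse 32 all 5 were lower, with log2 differences of -1.02 (Fosb) to -0.52 (Dusp1), where 42.2% of panel genes were lower. WT mouse 36 had all 5 lower, from -1.10 (Fosb) to -0.68 (Jun), where 35.8% of panel genes were lower. WT mouse 26 also had all 5 lower, from -0.66 (Dusp1) to -0.46 (Nr4a1), where 46.5% of panel genes were lower.

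The 2 other mice were mixed. KO mouse 23 had 4 of 5 genes higher, from 0.21 for Atf3 to 0.55 for Jun, and Fosb at -0.55, where 45.3% of panel genes were higher. WT mouse 12 had 4 of 5 higher, from 0.11 for Dusp1 to 0.39 for Jun, and Nr4a1 at -0.09, where 50.7% of panel genes were higher. Neither genotype held 1 direction, since the KO mice included the mouse with all 5 higher and a mouse with all 5 lower, and the WT mice included mouse 12 beside 2 mice with all 5 lower. Per housekeeping count, mouse 17 kept 5 of 5 higher (0.56 to 0.89) and mice 26, 32 and 36 kept 5 of 5 lower (-0.82 to -0.30 over the 3 mice). The mixed mice moved apart on that scale. Mouse 12 had 5 of 5 higher (0.02 to 0.49), while mouse 23 had only Jun (0.27) and Dusp1 (0.22) higher, with Atf3 (-0.07) and Nr4a1 (-0.03) turned below 0 beside Fosb (-0.83).

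**Figure D3:**
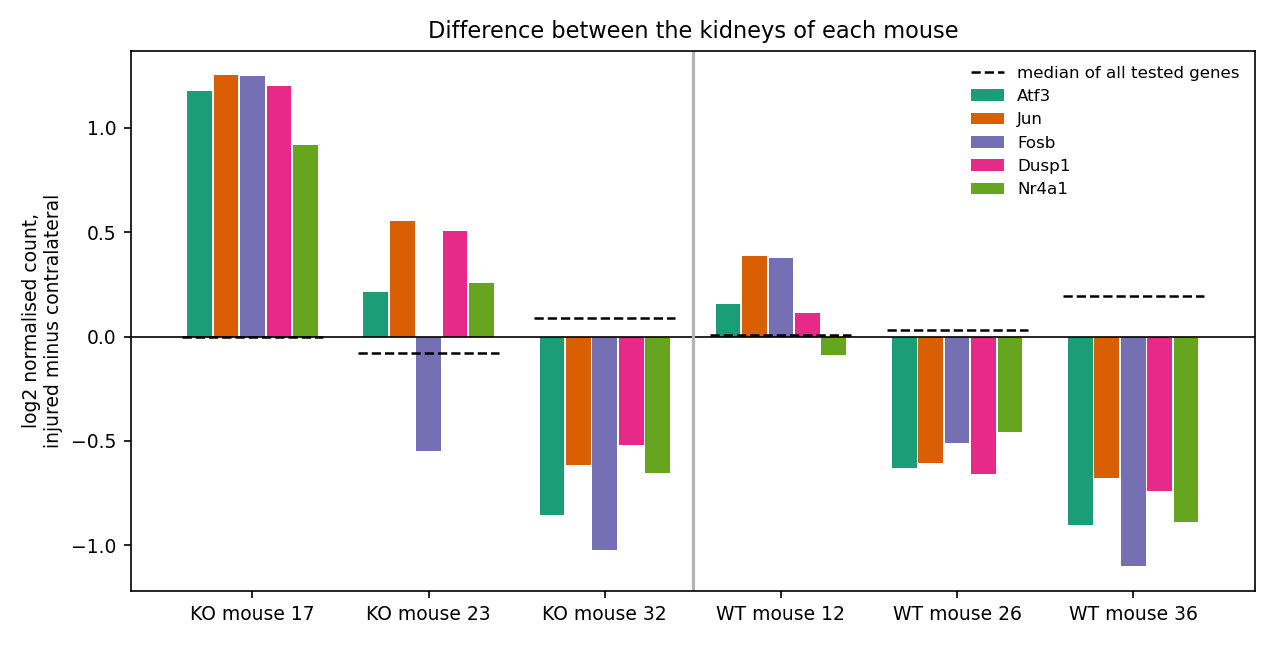
Log2 difference between the injured and the contralateral kidney (y axis) of each of the 6 mice, 1 bar a gene, with dashed lines at the median of all tested genes. The bars of a mouse mostly share a direction, up in KO mouse 17 and down in KO mouse 32 and WT mice 26 and 36.

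The spread of these differences over the 6 mice was above that of most genes. The SD was 0.91 for Fosb, 0.81 for Atf3, 0.80 for Jun, 0.77 for Dusp1 and 0.66 for Nr4a1, against a median SD of 0.53 over the 682 genes. From the largest SD down, they ranked 39, 96, 107, 133 and 219 of 682. The 5 genes also varied together. Pearson's r of their log2 normalised counts over 12 libraries ran from 0.82 (Fosb and Nr4a1) to 0.97 (Jun and Dusp1) between pairs of the 5 genes, and that of their within-mouse differences over 6 mice from 0.84 (Fosb and Dusp1) to 0.99 (Atf3 and Jun). Over all gene pairs of the panel the median r over libraries was 0.04 and the 95th percentile 0.94. These values are a description, because the points share 6 mice and the 3 libraries with high housekeeping counts.

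Genes most like each of the 5 were found by the same r over the 12 libraries. Atf3 was most like Cyr61 (0.97), a matricellular early response gene now named Ccn1, then Dusp1 (0.97) and the antiproliferative gene Btg2 (0.94). Jun was most like Dusp1 (0.97), the inhibitor of differentiation gene Id2 (0.97) and Socs3 (0.97), a feedback inhibitor of cytokine signalling. Fosb was most like the Notch ligand gene Jag1 (0.94), Atf3 (0.93) and the transcription factor gene Klf4 (0.92). Dusp1 was most like Jun, Atf3 and Cyr61 (0.95). Nr4a1 was most like the Notch target gene Hes1 (0.99), the actin-severing gelsolin gene Gsn (0.98) and the growth factor receptor gene Fgfr1 (0.97), although Fgfr1 began at 32 raw counts, below the detection threshold.

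The relation to the housekeeping count was tested over mice, within each side, on log2 counts scaled to the positive controls. In the 6 injured kidneys the counts of all 5 genes followed the housekeeping count, with r from 0.975 (Fosb) to 0.995 (Jun) and rho from 0.943 to 1. The exact two-sided permutation p of r, adjusted over 15 relations, was 0.00893 for each gene, and that of rho 0.0208 to 0.0278. The slopes ran from 1.15 for Atf3 to 1.36 for Nr4a1, in log2 count per log2 housekeeping count. Without mice 12 and 17, the farthest from the median, r over the other 4 mice was 0.955 to 0.991. A high r was common on the panel, since the median over the 682 genes was 0.91 and 34.2% had an r of at least that of Fosb. A slope at least that of Atf3 was found in 12.2% of genes, where the median slope was 0.565. The panel slopes, here and below, include probes near the threshold, such as Aif1, whose raw counts differed only 1.76-fold between libraries. The part of abundance in the slopes was not tested.

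In the 6 contralateral kidneys r ran from 0.927 (Atf3 and Fosb) to 0.981 (Nr4a1), with adjusted exact permutation p from 0.0167 to 0.0264, and rho from 0.6 to 0.886, with adjusted exact permutation p from 0.05 to 0.242. This relation rests on mice 12 and 36. Without them, r over the other 4 mice was -0.24 for Atf3, -0.30 for Jun, 0.39 for Fosb, -0.55 for Dusp1 and -0.20 for Nr4a1. Over all 6 mice 44.0% of panel genes had an r at least that of Fosb. The slopes were lower than in injured kidneys for each gene, from 0.762 for Fosb to 1.15 for Nr4a1, and 29.8% of panel genes had a slope of at least that of Fosb, with a median of 0.411. The difference in slope between the sides was not tested.

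The difference between the kidneys of a mouse also followed the housekeeping difference. The housekeeping count of the injured kidney was 4.28, 1.89 and 0.748 times the contralateral one in KO mice 17, 23 and 32, and 1.02, 1.30 and 0.631 times in WT mice 12, 26 and 36. For the 5 genes r over these 6 differences ran from 0.946 (Fosb) to 0.991 (Nr4a1), with adjusted exact permutation p from 0.00893 to 0.0170, and rho from 0.829 to 0.943, with adjusted exact permutation p from 0.0278 to 0.0795. The r of the 5 genes was near that of the panel, whose median was 0.936 and where 45.9% of genes had an r of at least that of Fosb. The slopes were 1.36 to 1.49, and 7.33% of panel genes had a slope of at least the lowest of these, with a median of 0.733 over the panel. Without mice 17 and 36, r was 0.88 for Atf3, 0.84 for Jun, 0.68 for Fosb, 0.86 for Dusp1 and 0.95 for Nr4a1 (n = 4). With 6 mice the smallest p that such a test allows is 0.00139.

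**Figure D4:**
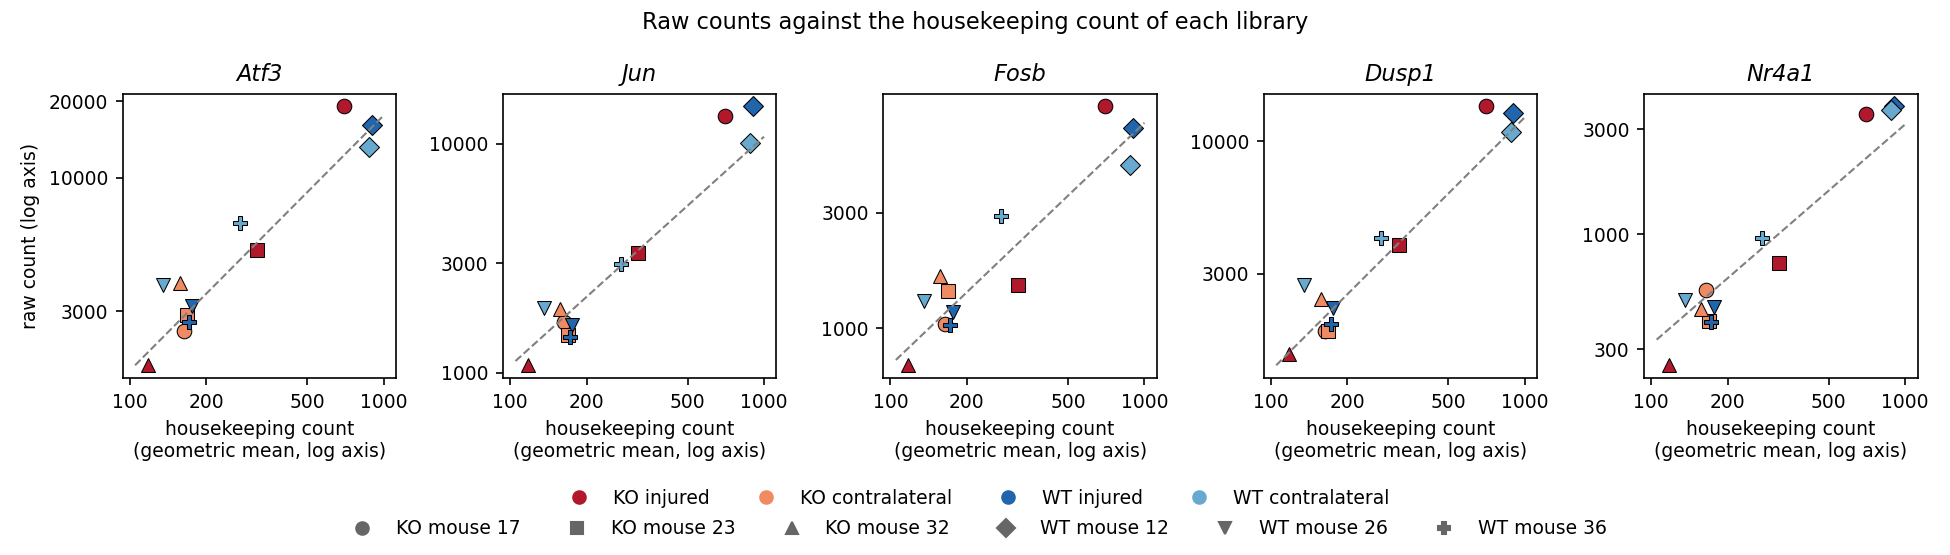
Raw count of each gene (y axis, log) against the geometric mean of the housekeeping genes (x axis, log) in the 12 libraries. The dashed line marks the gene's median ratio to the housekeeping count, and the libraries scatter along it over the 7.65-fold range of housekeeping counts.

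Markers of kidney tubule and of macrophages were set beside the 5 genes. Of 17 tubule markers listed, 5 were on the panel (Klk1, Egf, Havcr1, Fbp1 and Cdh1), and no library had a count of 0 for any. Their summed normalised count was 6098 to 25575 in KO injured, 12733 to 16986 in KO contralateral, 4425 to 48464 in WT injured and 12751 to 70818 in WT contralateral kidneys. Across the 12 libraries the log2 of that sum had an r of 0.90 with the mean log2 level of the 5 genes, and an r of 0.82 over the 9 libraries other than the 3 with high housekeeping counts. Between the within-mouse differences the r was 0.89. Btg2 and Gadd45b also had an r of 0.94 each across the 12 libraries. They are not cell type markers, and Btg2 had been picked for its r with Atf3. Whether such an r is particular to tubule markers cannot be read from them. The 5 tubule markers differed among themselves. Klk1 had an r of 0.94 and the adhesion gene Cdh1 one of 0.93, against 0.58 for Egf, 0.43 for Fbp1 and -0.37 for Havcr1. Klk1's log2 difference between kidneys was 1.40, 0.51 and -1.35 in KO mice 17, 23 and 32 and -0.21, -0.45 and -2.06 in WT mice 12, 26 and 36. Klk1 was thus lower in the injured kidney of mice 26, 32 and 36, which had all 5 early genes lower, and also in mouse 12, which had 4 of 5 higher. The summed tubule count was lower in the injured kidney of those 4 mice and of mouse 23 (-0.14). Whichever way the 5 early genes went, injured kidneys had less Egf and Fbp1 and more Havcr1 than the contralateral kidney of the same animal, in 6 of 6 mice. The part of tubule RNA in the values of the 5 genes was not tested.

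Macrophage markers followed injury instead. Of 12 listed, 11 were on the panel, and their summed normalised count was 6890 to 12257 in KO injured, 3048 to 4357 in KO contralateral, 3741 to 8742 in WT injured and 2558 to 5176 in WT contralateral kidneys. The injured kidney had the higher sum in all 6 mice, including those in which the 5 early genes were lower. In the injury response of both genotypes 9 of the 11 rose, against 7.33% of the panel called higher, and 0 fell, against 0.587% called lower. That count was 4 without mouse 23, 5 without mouse 26, 3 with positive control scaling and 2 without the mouse as a block. By genotype, 8 of 11 were called higher in KO mice, against 6.6% of the panel, and 0 of 11 in WT mice, against 0.733%. In WT mice 10 of the 11 estimates were above 0. The test of the difference of the responses called 0 of the 11. The log2 sum had an r of -0.22 with the mean log2 level of the 5 genes across the 12 libraries. Over the 9 libraries other than the 3 with high housekeeping counts it was -0.42, and between the within-mouse differences 0.56. Tubule genes split. Havcr1, which encodes the injury marker KIM-1, rose by 1.01 ± 0.19, while Egf, a distal tubule growth factor gene, fell with a log2 difference of -1.80 ± 0.49 (edgeR adjusted p = 0.00246 and 0.0326; SE, n = 6 mice). Fbp1 of gluconeogenesis fell with -0.85 ± 0.24 (edgeR adjusted p = 0.0377). The lowest raw count of Fbp1, 28, lay below the detection threshold. With background subtraction its log2 difference was -1.71 (edgeR adjusted p = 0.0459), so the size of its fall depended on the background. Egf was not called without mouse 23, 26 or 36 (edgeR adjusted p of 0.0946, 0.0903 and 0.185), nor Fbp1 without mouse 12, 23 or 36 (0.437, 0.0579 and 0.127), while Havcr1 was called without any 1 mouse. Scaling ended calls too. With positive controls the edgeR adjusted p was 0.314 for Egf and 0.361 for Fbp1. With housekeeping genes it was 0.14 for Fbp1, and with the 15 above the threshold 0.0504 for Egf and 0.158 for Fbp1. Without mice 12 and 17 it was 0.593 for Fbp1. Without the mouse as a block it was 0.166 for Havcr1, 0.576 for Egf and 0.391 for Fbp1.

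Markers of other cells the capture could hold were sparse. The 3 endothelial markers on the panel (Cdh5, Tek and Flt1, of 10 listed) summed to 793 to 1097 normalised counts in KO injured, 661 to 1081 in KO contralateral, 557 to 1188 in WT injured and 506 to 1163 in WT contralateral kidneys, with an r of 0.64 to the 5 genes that was 0.15 over the 9 libraries. Stromal (4 of 9), neutrophil (9 of 11), lymphoid (3 of 15) and dendritic cell markers (7 of 9) had an r of -0.90, -0.85, -0.87 and -0.88, which was -0.50, -0.31, -0.49 and -0.39 over the 9 libraries. Their summed raw counts were low and differed 1.88-fold, 2.11-fold, 1.63-fold and 2.40-fold between libraries, less than the 7.65-fold of the housekeeping count. Single markers varied from Ms4a1 at 91 to 157 and Col1a2 at 95 to 180 raw counts to Irf8 at 69 to 329. None of these 5 lists had a marker called in the injury response of both genotypes, and no library had a count of 0 for any of their markers. Their part in the result was not tested.

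**Figure D5:**
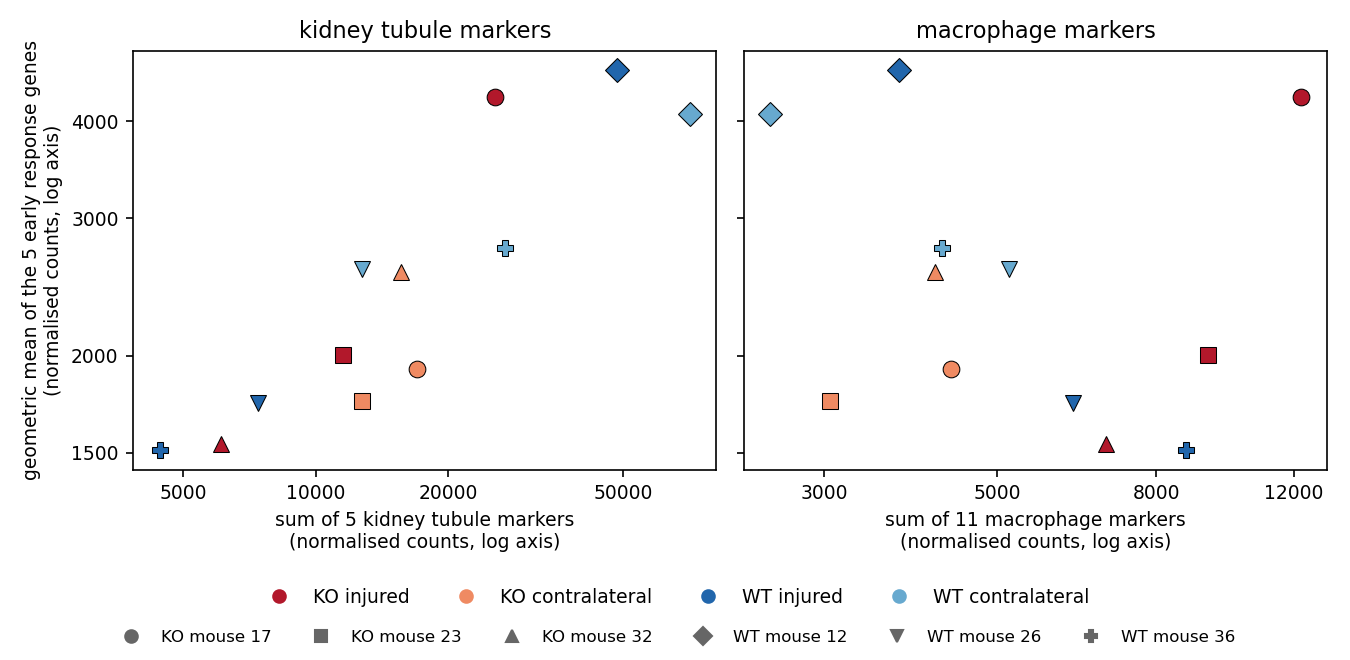
Geometric mean of the 5 genes (y axis, log) against the summed tubule markers (left) and macrophage markers (right; x axes, log), all as normalised counts, 1 symbol a library. The 5 genes are high where tubule markers are high, while both low and high values occur at either end of the macrophage axis.

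Other genes of the early response were read from lists by role, in the injury response of both genotypes. Of the AP-1 and ATF/CREB family 8 of 20 listed genes were on the panel and 0 were called, with a median log2 difference of 0.09, against -0.07 over all genes tested. Cebpb, an early bZIP factor of macrophages, stood at 0.47 ± 0.21 and the small Maf factor gene Maff at 0.12 ± 0.15 (edgeR adjusted p of 0.284 and 0.727; SE, n = 6 mice). Of other early transcription factors 0 of 12 were called (21 listed, median 0.01). Myc was nearest, at 0.62 ± 0.20 with an edgeR adjusted p of 0.0727 and higher in 5 of 6 mice, and Btg2, which tracked Atf3, stood at -0.21 ± 0.28. Nr4a2, the close relative of Nr4a1, stood at -0.02 ± 0.15, and Klf4, which tracked Fosb, at -0.005 ± 0.24.

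Signalling genes upstream and in feedback likewise gave no call. Of the MAP kinase pathway and its phosphatases 0 of 10 were called (25 listed, median -0.06), with the phosphatase genes Dusp2 at 0.40 ± 0.20 and Dusp6 at -0.06 ± 0.17. Of NF-kappa-B subunits and feedback genes 0 of 7 were called (18 listed, median 0.21), with the inhibitor genes Nfkbie at 0.56 ± 0.25 and Nfkbia at 0.35 ± 0.22 (edgeR adjusted p of 0.284 and 0.478). Of heat shock, oxidative and DNA damage stress genes 0 of 4 were called (28 listed, median 0.17), with the cell cycle inhibitor gene Cdkn1a at 0.34 ± 0.20 and Gadd45b, which had an r of 0.94 with the 5 genes, at -0.09 ± 0.29. Over these 5 lists the lowest edgeR adjusted p was that of Myc.

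A further list, of early response genes that mostly encode secreted proteins, did hold called genes. Of 26 listed, 23 were on the panel, 9 rose and 0 fell, with a median of 0.33 and against 7.33% of the panel called higher. Without the mouse as a block 4 rose, without mouse 12, 23 or 36 it was 6 each, and without mouse 32 it was 11. The count was 7 in KO mice, against 6.6% of the panel, and 2 in WT mice, against 0.733% of the panel, and the test of the difference of the responses called 0. The monocyte attractant gene Ccl2 averaged 938 ± 399 in injured and 259 ± 74.9 normalised counts in contralateral kidneys (SD, n = 6), a log2 difference of 1.77 ± 0.22 (SE, edgeR adjusted p = 8.60e-05). Ccl7, a related chemokine gene, rose by 1.57 ± 0.17 (edgeR adjusted p = 7.26e-05), and Il1a of interleukin-1 alpha by 2.04 ± 0.26 (edgeR adjusted p = 0.000111). The lowest raw counts, 34 for Ccl7 and 8 for Il1a, lay below the threshold. In contralateral kidneys Il1a averaged only 15.9 ± 4.48 and Ccl7 60.5 ± 21.0 normalised counts (SD, n = 6). With background subtraction the log2 difference was 2.69 for Ccl7 and 4.46 for Il1a (edgeR adjusted p = 0.000147 and 0.00109). Both genes were called either way, but the size of their rise depended on the background. Ptgs2, the inducible prostaglandin synthase gene, encodes an enzyme and rose by 1.10 ± 0.19 (edgeR adjusted p = 0.00144). It was not called without the mouse as a block (edgeR adjusted p = 0.0537). In 6 of 6 mice the injured kidney had more Ccl2, Ccl7 and Il1a, and in 5 of 6 more Ptgs2, including mice in which the 5 early genes were lower. Their r with the mean level of the 5 genes across the libraries ran from -0.30 for Ccl7 to -0.11 for Il1a.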

How the data were processed

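The deposited table holds NanoString counts: whole numbers for 768 probes in 12 libraries, with 6 positive and 8 negative control probes still in it. No normalization or counting software is named in the sources used here, and the values were taken as raw counts. Gene symbols are those of the file, and 744 of 754 matched an NCBI RefSeq table of GRCm38.p6 and 9 matched a synonym. The 20 housekeeping genes were taken by name from a list of common housekeeping genes, leaving 734 endogenous genes. The sources used here give no probe region, cartridge or amount of RNA loaded, so no genome position or sequence is printed.

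A gene was kept where its count reached 53.1, which lies 2 SD above the mean negative control, in at least 3 libraries. This left 682 genes, all 5 early genes among them. Counts were scaled with TMM factors, and normalised counts are relative to a geometric mean effective size of 231710.1. Tests used edgeR 4.0.16 (R 4.3.3), with quasi-likelihood fits of all 12 libraries. A fit with mouse as a fixed block gave the injury comparisons, and a separate fit of the 4 group means compared KO and WT. Benjamini-Hochberg adjustment ran over the 682 genes, and an adjusted p under 0.05 was called. The SE is the absolute log2 difference over the square root of F. Intervals cover 95%. Relations over mice used exact two-sided permutation tests (scipy 1.17.1). Alternatives included DESeq2 1.42.0 and other scalings. The fit was tested on simulated data made for the injury response of both genotypes.

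The pairing of kidneys comes from the shared animal. Across genes, the deviations of both kidneys from their group means correlated at 0.96, 0.88 and 0.72 in WT mice 12, 26 and 36 and at -0.13, 0.37 and -0.49 in KO mice 17, 23 and 32. No replicate libraries agreed within sampling noise, with a chi-square per degree of freedom of at least 5.96. The 5 genes, the gene lists and the tests were chosen with earlier results of these data known. Genes were named by a rule that allows the 5, Aif1, the 4 genes of each list with the lowest p and the 3 genes most like each of the 5. It also allows the most abundant marker of another cell type. Not all 4 genes of a list are named. Those left out include Batf3, Id1 and Map2k1 with negative and Nfkb1 and Tnfaip3 with positive log2 differences in the injury response of both genotypes. Adgre1, Egf, Havcr1, Fbp1, Cdh1, Nr4a2, Klf4, Dusp6 and Col1a2, where they fall outside that rule, were named after their values were seen.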

Additional observations from a re-analysis of the deposited data

How the results depend on the processing

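Of the 5 early genes, 0 were called in each of the 6 comparisons under every alternative scaling, background subtraction, no filter, DESeq2 and every fit that left out a mouse, with 1 exception. The difference of responses called 1 gene, Nr4a1, without mouse 32, so its count ran from 0 to 1 over the fits that left out a mouse. The cause was not tested. Directions turned as follows. Without the mouse as a block, Dusp1 (0.0796) and Nr4a1 (0.0136) turned in both genotypes together and Fosb (0.0456) in KO mice, and no call of the 5 changed, while the panel's calls in both genotypes together went to 14 without the block, against 54 with it, those in KO mice to 3 against 46 and those in WT mice to 0 against 5. With DESeq2's size factors, Jun in both genotypes was -0.0006307, and in injured kidneys Atf3 was -0.0837, Fosb -0.146 and Dusp1 -0.126. With DESeq2 itself these were -0.0009862, -0.0837, -0.146 and -0.126. With positive control scaling, Atf3 (0.19), Fosb (0.0278), Dusp1 (0.32) and Nr4a1 (0.19) turned in both genotypes together and Fosb (0.43) in KO mice. With housekeeping scaling, Jun (0.195) and Nr4a1 (0.0447) turned in injured kidneys. With no filter, Atf3 (-0.0324), Fosb (-0.0953) and Dusp1 (-0.0678) turned there.

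The following 3 settings were chosen after seeing the data. With the 15 housekeeping genes above the threshold, Atf3 (-0.0326) and Nr4a1 (-0.0315) turned in KO mice, Fosb (-0.0393) in the difference of responses, Jun (0.204) and Nr4a1 (0.0463) in injured and Fosb (0.0438) in contralateral kidneys. Without mice 12 and 17, Jun was -0.32 in both genotypes together, Atf3 -0.29 and Nr4a1 -0.16 in KO mice, and Jun 0.33, Fosb -0.11 and Nr4a1 0.0116 in injured kidneys. Library sizes and factors without the 5 genes turned no direction.

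Over the fits that left out 1 mouse, the log2 differences in both genotypes together ran from -0.44 to 0.10 for Atf3, -0.21 to 0.29 for Jun, -0.64 to -0.0436 for Fosb, -0.27 to 0.20 for Dusp1 and -0.38 to 0.0432 for Nr4a1. In KO mice they ran from -0.33 to 0.74 for Atf3, -0.0350 to 0.95 for Jun, -0.79 to 0.40 for Fosb, -0.0137 to 0.90 for Dusp1 and -0.20 to 0.63 for Nr4a1. In WT mice they stayed below 0. The difference of responses ran from -0.29 to 0.88 for Fosb and from 0.36 to 1.18 for Nr4a1. In injured kidneys they ran from -0.47 to 0.52 for Atf3, -0.72 to 0.85 for Jun, -0.76 to 0.55 for Fosb, -0.46 to 0.61 for Dusp1 and -0.96 to 0.66 for Nr4a1. The scalings also moved the median of all genes. It was 0.27 with positive controls in both genotypes together, against -0.07, and in contralateral kidneys -0.55 with positive controls and 0.34 with housekeeping genes, against 0.12.

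The relation to the housekeeping count without the 2 mice farthest from the median was 0.991 for Atf3, 0.988 for Jun, 0.955 for Fosb, 0.991 for Dusp1 and 0.983 for Nr4a1 in injured kidneys. It was -0.236, -0.299, 0.388, -0.551 and -0.195 for the same genes in contralateral kidneys, and 0.877, 0.837, 0.681, 0.861 and 0.952 for the within-mouse differences. These rest on 4 mice and carry no test. Raw counts in place of positive-scaled ones kept the direction and side of the threshold of all 15 relations.

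Whole-panel calls moved too. In both genotypes together they were 54, and 35, 28, 223 and 29 without mice 12, 23, 32 and 36. In KO mice they were 46, with 27 from the KO libraries alone, 90 by DESeq2, 24 with the 15 housekeeping genes, 25 without mice 12 and 17, 14 without mouse 23 and 370 without mouse 32. DESeq2's size factors gave 47 higher and 12 lower there, against 45 and 1. In WT mice they were 5, and 0 to 55 under the alternatives.

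Counting error of the 5 genes was small beside the spread between mice. Raw counts of probes near the threshold, such as Aif1 and Col1a2, differed less between libraries than the housekeeping count did, so their normalised counts carry the library size. In the edgeR tests of injury the p-values measure the spread of the differences between the kidneys of a mouse. In those of KO against WT they measure the spread between libraries of the same group, pooled over the 4 groups, with 3 mice a genotype. Both kidneys of a mouse entered that spread as separate libraries, with no term for the mouse. It therefore has more degrees of freedom than the 6 mice alone would give. The permutation p-values of the housekeeping relations come from reordering 6 mice.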
